A study of Mus musculus with 55 samples.

Results

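The Gadd45 genes were followed in mouse liver after activation of the constitutive androstane receptor (CAR), with and without the histone methyltransferase Setd8. All genes whose symbol starts with Gadd45 were taken from the 2 deposited RNA-seq tables, which list 4113 genes in all. The rule found 2 members, Gadd45b and Gadd45a, and both stand in both tables. The table of Setd8-LKO + TCPOBOP against WT lists 3900 genes and that of WT + TCPOBOP against WT lists 719, with 506 genes in common. Gadd45g, the remaining member of the family, and Gadd45gip1 are not among the listed genes and their RNA was not analysed here.

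Whole livers of C57Bl6 male mice 45 to 50 days old were used. The RNA-seq data hold 14 libraries in 3 groups, namely 5 of WT, 5 of WT + TCPOBOP and 4 of Setd8-LKO + TCPOBOP. TCPOBOP, an agonist of mouse CAR, was given as 1 intraperitoneal injection of 3 mg/kg, and livers were collected after 24 h. Setd8-LKO mice carry floxed Setd8 alleles cut by a Cre recombinase under the albumin promoter, which acts in hepatocytes and leaves the other liver cells with intact alleles. The WT group is labelled untreated, whereas the methods name a vehicle for controls, and Setd8-LKO livers without TCPOBOP were not analysed here. The effect of the deletion alone can therefore not be told apart from its effect after TCPOBOP. CTCF, Smc3 and H3K27ac ChIP-seq, ATAC-seq, and Lamin A/C and H4K20Me3 CUT&Tag were available as 1 list of peaks or islands per assay for WT and 1 for Setd8-LKO + TCPOBOP.

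The GADD45 proteins are small acidic proteins with no known catalytic activity that act by binding to others. They bind the kinase MTK1 (Map3k4), which starts the p38 and JNK stress cascades, and they bind Cdk1-cyclin B, the p21 inhibitor (Cdkn1a) and PCNA. Gadd45a is a classical p53 target that is induced by DNA damage. Gadd45b is induced in hepatocytes as an early response gene after CAR activation and partial hepatectomy, and it is also induced by NF-kB and TGF-beta. The GADD45B protein has been described as a co-activator of CAR and as a brake on JNK signalling through Map2k7.

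Gadd45b (ENSMUSG00000015312) lies on the plus strand at chr10:80930073-80932204 of mm10, and Gadd45a (ENSMUSG00000036390) lies on the minus strand at chr6:67035096-67037457. GENCODE annotates 3 transcripts of Gadd45b and 7 of Gadd45a, and Gadd45b-201 and Gadd45a-201 have 4 exons each. The promoter sequences are shown because the peak lists described further on differed between the 2 start sites. They are taken from RefSeq (GRCm38.p6) and run from 250 bases before to 50 bases after the RefSeq start, at chr10:80929841-80930140 on the plus strand and at chr6:67037358-67037657 on the minus strand. The RefSeq starts, 80930091 for Gadd45b and 67037407 for Gadd45a, lie 18 and 50 bases downstream of the GENCODE starts, and motif positions count from the RefSeq start while peak distances count from the GENCODE start. Capitals mark exact matches, on either strand, to the motifs named in the next paragraph.
Gadd45b: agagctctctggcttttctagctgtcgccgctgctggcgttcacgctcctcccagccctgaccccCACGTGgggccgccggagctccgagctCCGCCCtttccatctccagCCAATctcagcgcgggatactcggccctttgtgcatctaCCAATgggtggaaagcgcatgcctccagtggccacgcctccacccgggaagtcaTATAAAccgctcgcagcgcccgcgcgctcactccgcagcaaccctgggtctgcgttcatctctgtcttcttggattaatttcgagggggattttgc
Gadd45a: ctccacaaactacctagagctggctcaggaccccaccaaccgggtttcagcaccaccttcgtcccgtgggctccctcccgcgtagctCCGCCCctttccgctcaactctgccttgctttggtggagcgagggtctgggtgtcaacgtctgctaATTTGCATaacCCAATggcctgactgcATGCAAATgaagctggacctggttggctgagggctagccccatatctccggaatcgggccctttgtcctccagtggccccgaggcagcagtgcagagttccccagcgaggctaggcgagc

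Both promoters were rich in G and C, at 62.0% for Gadd45b and 61.0% for Gadd45a, with 24 and 14 CG dinucleotides. Gadd45b held a TATA box (TATAAA) 46 bases before the start, which 13.6% of the 32851 promoters in the table hold and which was not found in Gadd45a. It also held an E-box (CACGTG), present in 7.15% of promoters, and 2 CCAAT boxes (CCAAT), present in 37.4%. Gadd45a held 1 CCAAT box between 2 octamers (ATTTGCAT), a motif found in 1.74% of promoters. Each promoter held 1 GC box (GGGCGG), as did 35.7% of promoters. Neither window held the AP-1 site TGACTCA, the CRE TGACGTCA, the nuclear receptor half-site AGGTCA or the kappaB site, which 5.2%, 1.79%, 16.3% and 4.51% of promoters hold. These are matches of letters and show no binding.

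The libraries are labelled as 2 runs, A and B, in the table headers, and each group has libraries in both. What a run stands for is not given there. Summed counts over the 3900 listed genes were between 5734065 and 12780869 in the 9 libraries of that table, and over the 719 genes between 1389901 and 3706582 in the 10 libraries of the other. The authors' normalization factors of the 14 libraries lay between 0.752 and 1.39, and those of Setd8-LKO + TCPOBOP were below those of every other library. Kmt5a, which encodes Setd8, had 1364 ± 68.3 normalized counts (SD, n = 4) in Setd8-LKO + TCPOBOP and 644 ± 89.7 (n = 5) in WT, so its gene-level count was not lower in the library group labelled as the knockout. The floxed exon is not resolved by these counts. In Setd8-LKO + TCPOBOP, 7 of 10 hepatocyte markers were listed and 6 passed the test as lower, where 37.5% of all tested genes were called lower and 55.2% higher, and their summed counts were 485266 to 695083 beside 1189438 to 1978391 in WT. The 5 listed cholangiocyte markers summed to 1617 to 7426 beside 422 to 686, with 4 called higher, and the 4 listed of 8 stellate cell and fibroblast markers, all called higher, summed to 5103 to 11702 beside 2071 to 3108. Of 12 macrophage markers only Ccr2 was listed, at 44 to 143 beside 10 to 40. Neutrophil markers had 2 of 6 listed with none called, lymphocyte markers had 2 of 9 listed with both lower, and none of the 6 endothelial markers was listed. In WT + TCPOBOP the hepatocyte marker Ass1 and the stellate cell marker Lrat were the only listed markers, both lower, as were 20.6% of genes tested there. The paper reports by microscopy that most hepatocytes were lost in Setd8-LKO + TCPOBOP livers and that the remaining ones were enlarged. The part of these cell type differences in the Gadd45 values was not tested. From these whole-liver counts alone, fewer cells of a type and less RNA per cell cannot be told apart.

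Gadd45b was near the floor of detection in WT livers and was among the most strongly raised genes in both TCPOBOP groups. A normalized count is the number of reads assigned to a gene times a factor for each library. In WT Gadd45b had 10, 15, 6, 42 and 16 normalized counts in replicates 1 to 5, from 6 to 41 raw reads. In WT + TCPOBOP it had 1454, 1548, 1544, 1597 and 1201, and in Setd8-LKO + TCPOBOP 476, 636, 1248 and 669. All TCPOBOP-treated libraries lay above all WT libraries. The highest WT value, 42, came from replicate 4.

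The mean of Gadd45b rose from 17.8 ± 14.1 (SD, n = 5) in WT to 1469 ± 158 (n = 5) in WT + TCPOBOP. The log2 fold change was 6.36 (SE 0.47, edgeR adjusted p = 1.77e-05), which is 82.1-fold with a 95% interval of 40.5 to 167. Of the 679 genes tested in that comparison 58.2% were called higher, where a call needs an adjusted p under 0.05 and a change of at least 2-fold. Gadd45b ranked 13 by size of rise, so that 1.77% of tested genes rose more. In Setd8-LKO + TCPOBOP its mean was 757 ± 338 (n = 4), a log2 fold change of 5.40 over WT (SE 0.51, edgeR adjusted p = 2.21e-05), or 42.4-fold (19.3 to 92.8). P-values were adjusted over the 18512 genes that the authors tested. In Setd8-LKO + TCPOBOP 55.2% of the 3726 tested genes were called higher and Gadd45b ranked 67. Both tables hold only genes that the authors selected as changed, 3.88% and 21.1% of the 18512 they tested, so a listed gene had to differ from WT and these p-values give the size of the change against the replicate spread rather than independent support for it. The split of calls depended on the scaling: with factors estimated from the listed genes alone (TMM), the median log2 fold change moved by -1.25 and 71 of 278 calls in WT + TCPOBOP were higher, and with DESeq2 size factors it moved by -0.82 and 845 of 2342 calls in Setd8-LKO + TCPOBOP were higher, while both Gadd45 genes were called higher under each. Groups that do not overlap were likewise common among tested genes, at 82% in WT + TCPOBOP and 86.8% in Setd8-LKO + TCPOBOP.

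**Figure D1:**
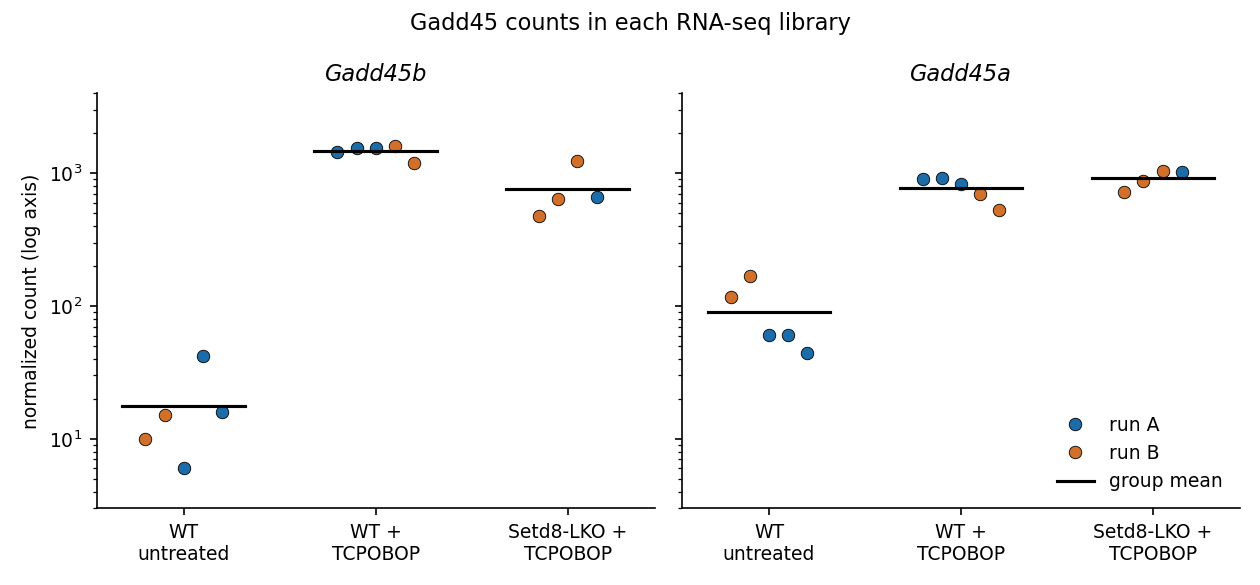
Normalized counts (log axis) of Gadd45b, left, and Gadd45a, right, in each RNA-seq library of WT, WT + TCPOBOP and Setd8-LKO + TCPOBOP, coloured by run, with bars at the group means. Every treated library lies above every WT library, and Gadd45b in Setd8-LKO + TCPOBOP spreads from 476 to 1248.

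Gadd45a started from a higher level and rose by a smaller factor. In WT it had 118, 168, 61, 61 and 44 normalized counts in replicates 1 to 5. In WT + TCPOBOP it had 903, 916, 834, 704 and 533, and in Setd8-LKO + TCPOBOP 726, 872, 1048 and 1023. Again no treated library overlapped the WT range.

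The mean of Gadd45a rose from 90.4 ± 51.6 (SD, n = 5) to 778 ± 161 (n = 5) in WT + TCPOBOP, a log2 fold change of 3.11 (SE 0.37, edgeR adjusted p = 0.000516), or 8.63-fold (95% interval 4.91 to 15.1). It reached 917 ± 149 (n = 4) in Setd8-LKO + TCPOBOP, a log2 fold change of 3.35 (SE 0.37, edgeR adjusted p = 5.37e-05), or 10.2-fold (5.81 to 17.8). By size of rise it ranked 59 of 679 and 329 of 3726. Exact two-sided permutation tests of log2(normalized count + 1) gave p = 0.00794 for both genes in both comparisons, the smallest value these group sizes allow. Both genes had been selected as changed on these same libraries, so this value is no independent support. Groups did not overlap for 82% of tested genes in WT + TCPOBOP and 86.8% in Setd8-LKO + TCPOBOP.

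In the WT and WT + TCPOBOP libraries the Gadd45a values of runs A and B lay apart, in sets of 3 and 2 libraries. Sets this small can lie apart by chance, and how many other genes did so was not counted. In WT the 2 libraries of run B had a mean of 143 and the 3 of run A a mean of 55.3, with no overlap, and in WT + TCPOBOP the order was turned, with 618.5 (n = 2) in run B and 884 (n = 3) in run A. In Setd8-LKO + TCPOBOP the 1 library of run A, at 1023, lay inside the range of run B, 726 to 1048. The log2 fold change of WT + TCPOBOP over WT was 4.0 within run A and 2.12 within run B, both called (edgeR adjusted p = 0.00243 and 0.0135). The difference between the runs was -1.88 on the log2 scale (edgeR interaction term, unadjusted p = 0.000413, adjusted p = 0.075 over 679 genes). By edgeR none of these genes passed after adjustment (0% called), and 108 had an unadjusted p under 0.05. For Setd8-LKO + TCPOBOP the fold change of Gadd45a was 4.21 within run A, where 1 knockout library stands, and 2.63 within run B. Gadd45b showed 6.14 and 6.83 within runs A and B in WT + TCPOBOP, and 4.96 and 6.0 in Setd8-LKO + TCPOBOP, and its interaction with the run was 0.69 (unadjusted p = 0.416, adjusted p = 0.659).

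The start of Gadd45a overlaps E230016M11Rik, a noncoding gene on the opposite strand. E230016M11Rik was also listed in both tables, with 143 ± 24.0 normalized counts (SD, n = 5) in WT, 381 ± 56.6 (n = 5) in WT + TCPOBOP and 451 ± 47.5 (n = 4) in Setd8-LKO + TCPOBOP. Whether the counting used strand is not given in the sources used here, so reads in the overlap cannot be assigned to either gene. Its log2 fold changes of 1.42 and 1.66 were smaller than those of Gadd45a.

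Per kilobase of annotated exon, Gadd45b was below Gadd45a in WT and above it in WT + TCPOBOP. In WT Gadd45b stood at 11.2 ± 8.88 normalized counts per kb and Gadd45a at 51.2 ± 29.3 (SD, n = 5), and the ratio of Gadd45b to Gadd45a within a library was between 0.0941 and 0.764. In WT + TCPOBOP Gadd45b was the higher of both in all 5 libraries, at 924 ± 99.7 beside 441 ± 91.1 per kb, a ratio of 2.15 ± 0.34. In Setd8-LKO + TCPOBOP they were close, at 477 ± 213 for Gadd45b and 520 ± 84.7 for Gadd45a (n = 4), and the ratio ran from 0.726 to 1.32, with replicate 3 the only library above 1.

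The untreated columns were identical for all 506 shared genes of both tables, raw and normalized, so the 14 libraries had been normalized together and both TCPOBOP groups could be compared directly. This addressed whether the 2 genes reached the same level without Setd8 after the same dose and time. Gadd45b was lower in 3 of 4 Setd8-LKO + TCPOBOP libraries than in any WT + TCPOBOP library, and replicate 3, at 1248, lay just above the lowest of WT + TCPOBOP at 1201. Its log2 difference was -0.96 (SE 0.40, 95% interval -1.81 to -0.10). The edgeR test over 506 genes gave an adjusted p of 0.056, which missed the threshold, in a comparison where 44.9% of genes were called and 49.8% did not overlap. An exact two-sided permutation test of this gene alone gave p = 0.0159. The call rested on that library: without Setd8-LKO + TCPOBOP replicate 3 the log2 difference was -1.31 and the edgeR adjusted p was 0.0176. The median log2 difference of all 506 genes was -0.23.

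Gadd45a showed no difference that could be told from the replicate spread, at 0.24 on the log2 scale (SE 0.33, 95% interval -0.46 to 0.94, edgeR adjusted p = 0.577). The interval includes both a small fall and a rise of almost 1 log2 unit. The exact permutation p was 0.278, and the groups overlapped.

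**Figure D2:**
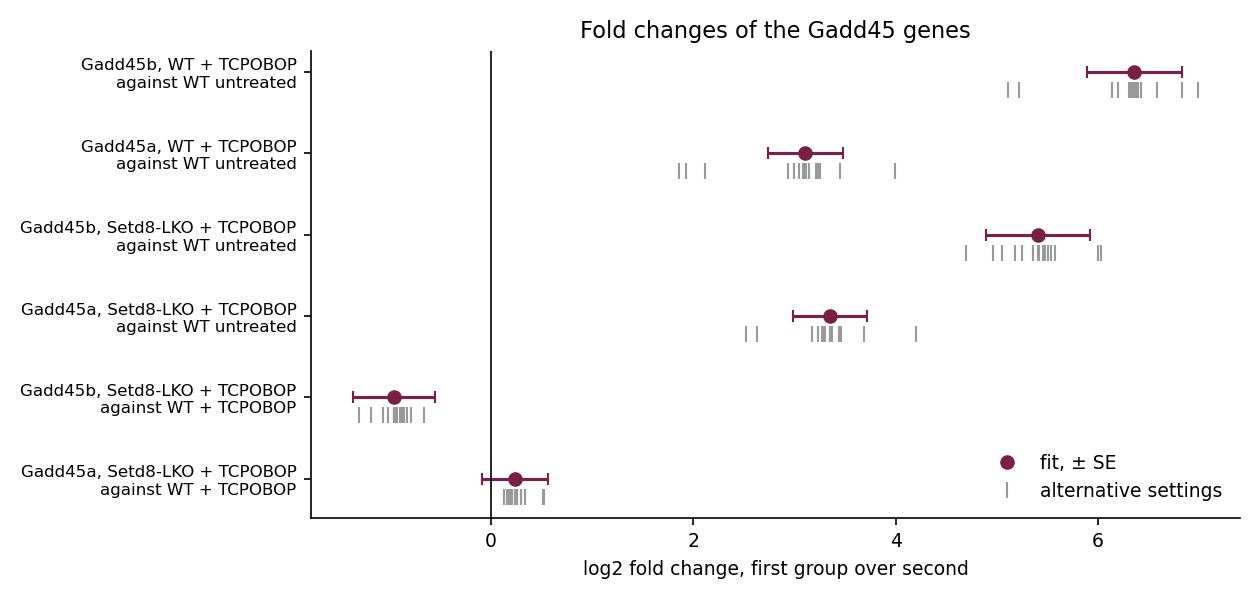
Log2 fold changes of Gadd45b and Gadd45a in the 3 comparisons (points, with SE as bars) and under the alternative settings (ticks). All settings put both genes above WT in both TCPOBOP groups, and Gadd45b below WT + TCPOBOP in Setd8-LKO + TCPOBOP at -1.31 to -0.66.

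The binding partners of the GADD45 proteins were listed at shares near those of all genes the authors tested. Of 16 partners and downstream kinases, 4 were listed in Setd8-LKO + TCPOBOP and all 4 were called higher, beside 21.1% of genes listed and 55.2% of tested genes called higher. Ccnb1 (cyclin B1) rose from 7.4 ± 4.45 normalized counts (SD, n = 5) to 432 ± 102 (n = 4), Cdkn1a (p21) from 56.6 ± 34.2 to 1747 ± 424, and Cdk1 from 33.2 ± 16.8 to 447 ± 74.4. The p38 kinase Mapk13 was near the floor of detection, at 3.8 ± 2.28 in WT and 20 ± 7.35 in Setd8-LKO + TCPOBOP. Its log2 fold change was 2.30 (SE 0.45). In WT + TCPOBOP only Ccnb1 was listed, 6.25% of the 16 beside 3.88% of all genes the authors tested. It stood at 24.6 ± 10.2 (n = 5) and did not pass (log2 fold change 1.66, edgeR adjusted p = 0.117). Ccnb1 was 4.13 higher on the log2 scale (SE 0.40, edgeR adjusted p = 5.75e-07) in Setd8-LKO + TCPOBOP than in WT + TCPOBOP. Map3k4 and Map2k7, the direct kinase partners, were in neither table.

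Of 17 regulators reported to act on Gadd45b transcription, 1 was listed in each table. Relb, an NF-kB subunit, was called higher in Setd8-LKO + TCPOBOP, as were 55.2% of the genes tested there. It had 155 ± 46.3 normalized counts (SD, n = 4) beside 51.2 ± 14.3 (n = 5) in WT, a log2 fold change of 1.59 (SE 0.28). The Relb value was lowest, at 87, in replicate 3, in which Gadd45b was highest. Egr1 was listed in WT + TCPOBOP at 32 to 151 beside 95 to 1698 in WT and did not pass (log2 fold change -2.90, edgeR adjusted p = 0.171). The value of 1698 came from WT replicate 3, which had the lowest Gadd45b count, at 6 raw reads beside 9 in WT replicate 1. These are single libraries, and a link of either regulator to Gadd45b was not tested. Nr1i3, which encodes CAR, was in neither table.

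Most CAR target genes were listed, and Gadd45b stood in their upper range. The list of CAR targets was chosen with earlier results of these data known, so the share listed is no independent result. In WT + TCPOBOP 34 of 38 were listed, beside 3.88% of all genes the authors tested. Of these 33 were tested and 32 were called higher, beside 58.2% of all genes tested here, and their median log2 fold change was 1.88 beside 1.34 for all tested genes. Cyp2b10, the classical CAR target, rose from 51.4 ± 35.8 normalized counts (SD, n = 5) to 57542 ± 3037 (n = 5), a log2 fold change of 10.1. The estimate for Gadd45b, 6.36 (SE 0.47), lay between those of Akr1b7, 7.0 (SE 0.38), and Cyp2c55, 6.01 (SE 0.48). Their 95% intervals overlapped, so the order of these 3 genes is not settled. Akr1b7 had only 3 to 12 normalized counts in WT. In Setd8-LKO + TCPOBOP 27 of 38 were listed and 26 called higher, beside 21.1% and 55.2% of all genes, and the median was 2.36 beside 1.16. Cyp2b10 reached 47140 ± 16254 (n = 4), a log2 fold change of 9.84, and Akr1b7 rose by 7.44. Cyp2c55 rose by 5.70 (SE 0.47), here above the 5.40 (SE 0.51) of Gadd45b. Cyp2b9 was called higher as well, at 298 to 1414 normalized counts beside 1 to 3 in WT, too few for a fold change.

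Between both TCPOBOP groups, 25 CAR targets could be compared. In Setd8-LKO + TCPOBOP 5 were called higher than in WT + TCPOBOP, 3 were called lower and 17 did not pass, beside 17.6% called higher and 27.3% called lower of all 506 genes, with a median log2 difference of -0.07. Cyp2b10 was among those that did not pass (-0.29, SE 0.37, edgeR adjusted p = 0.555). The 5 higher genes were Cyp2b9 (log2 difference 2.43), Foxm1 (2.12), Abcc4 (1.66), Gsta1 (1.58) and Gstm3 (1.41). For Cyp2b9 the groups overlapped, at 298 to 1414 beside 4 to 525 normalized counts in WT + TCPOBOP (SE 0.93). Its edgeR adjusted p was 0.0372 and its exact permutation p 0.0556. The 3 lower genes were Cyp2c54, Cyp2c50 and Cyp2c37, neighbours in 1 gene family whose reads can be split between near-identical copies. The difference of Gadd45b, at -0.96, was smaller in size than theirs, which lay between -1.92 and -1.23.

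**Figure D3:**
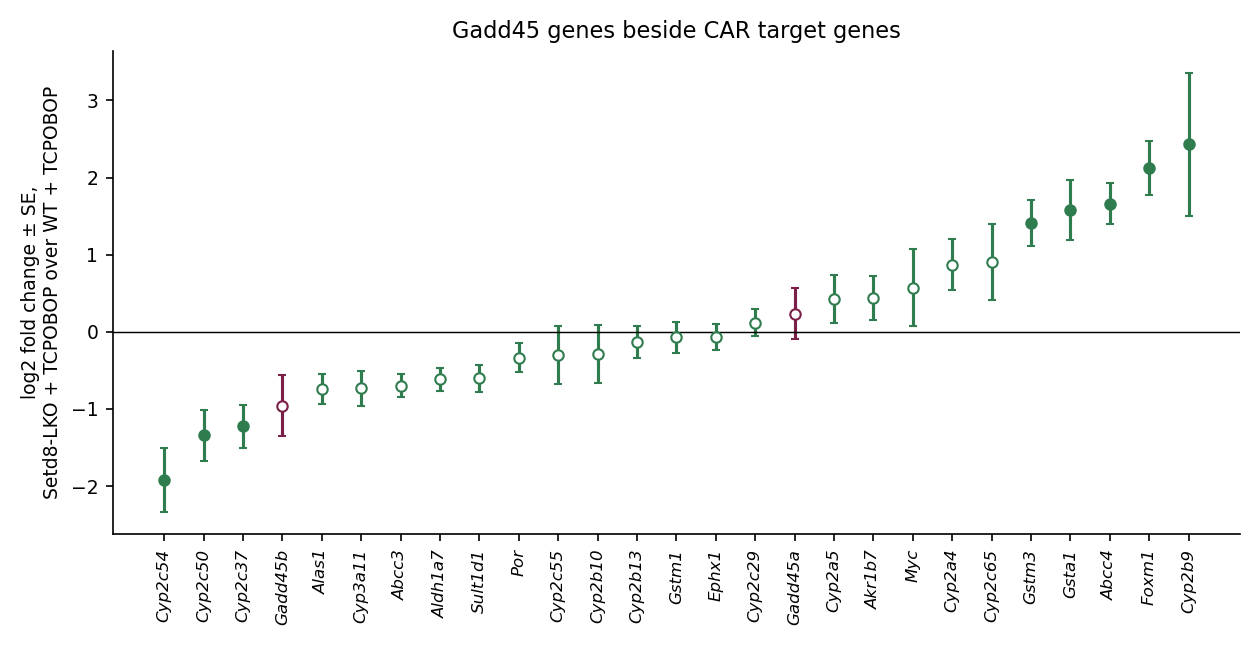
Log2 fold change of Setd8-LKO + TCPOBOP over WT + TCPOBOP for the Gadd45 genes and the 25 CAR target genes in both tables, with SE as bars and filled points for called genes. Gadd45b sits at -0.96 above the 3 lower Cyp2c genes, Gadd45a at 0.24 and Cyp2b10 at -0.29.

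Immediate early and stress genes, the class in which Gadd45b is often placed, were described in each table on their own, and the groups were compared only for genes in both. In Setd8-LKO + TCPOBOP 14 of 24 were listed and 12 called higher, beside 21.1% and 55.2% of all genes, and the median log2 fold change was 2.1 beside 1.16 for all tested genes. Trib3, a stress-induced pseudokinase, rose from 103 ± 42.4 normalized counts (SD, n = 5) to 1950 ± 860 (n = 4), and Atf3, a stress transcription factor, from 23.6 ± 7.50 to 371 ± 185. Ier3 rose by 2.86 on the log2 scale (SE 0.32). Fos and Hspa1a did not pass, at 1.46 and 1.27. In WT + TCPOBOP 5 of 24 were listed and 2 called higher, beside 3.88% and 58.2%. Fosl2, an AP-1 subunit, rose by 3.20 (SE 0.21) to 1417 ± 133 (n = 5), more than its 744 ± 139 (n = 4) in Setd8-LKO + TCPOBOP, but the difference of -0.93 (edgeR adjusted p = 0.00172) did not reach the 2-fold limit of a call. Jun, another AP-1 subunit, was 1.43 higher on the log2 scale in Setd8-LKO + TCPOBOP (SE 0.21, edgeR adjusted p = 4.14e-05).

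The p53 target genes, the class to which Gadd45a belongs, had 13 of 26 members listed in Setd8-LKO + TCPOBOP. This was 50% beside 21.1% of all genes the authors tested. In WT + TCPOBOP 2 were listed, 7.69% beside 3.88%. The tables list 3900 and 719 genes, so the difference between both counts is not particular to the list. The list was chosen with earlier results of these data known, so these shares are no independent result. In Setd8-LKO + TCPOBOP all 13 were called higher, beside 55.2% of all genes tested, and the median log2 fold change was 1.93 beside 1.16 for all tested genes. The largest rises were those of Ckap2, a spindle protein, from 8.2 ± 5.59 to 452 ± 85.6 (log2 fold change 5.75), Cdkn1a (4.94) and Eda2r, a TNF receptor family member (4.76). The 2 in WT + TCPOBOP were Gtse1 and Plk3, and neither passed (log2 fold changes 1.51 and 1.19, edgeR adjusted p = 0.1 and 0.312). Gadd45a was raised in WT + TCPOBOP while Cdkn1a was not listed there, and its level in both TCPOBOP groups could not be told apart at this spread.

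**Figure D4:**
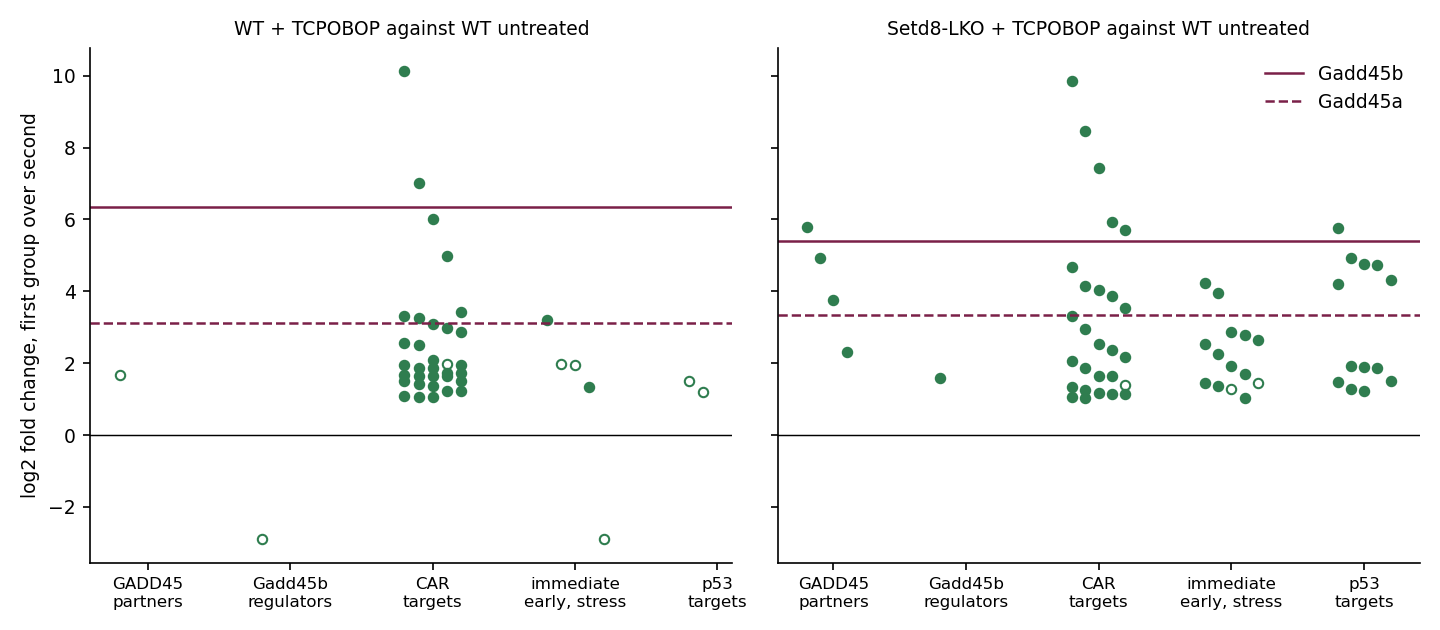
Log2 fold change over WT of the listed genes of 5 gene lists, in WT + TCPOBOP, left, and Setd8-LKO + TCPOBOP, right, with filled points for called genes and lines at Gadd45b (solid) and Gadd45a (dashed). Lines cross the CAR target column in its upper range at 6.36 and 3.11 on the left, and at 5.40 and 3.35 on the right.

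The genes whose counts followed the members most closely across libraries were different for the 2 genes. Over the 9 libraries of the Setd8-LKO table, log2 counts of Gadd45b correlated best with Ahr, the aryl hydrocarbon receptor (Pearson's r = 0.988), Fam110c (0.986), Wnt5b (0.985), Mvp (0.984) and Adamts1 (0.984), and Gadd45a stood at 0.920, ranked 663 of 3899 genes. Over the 10 libraries of WT + TCPOBOP and WT, Gadd45b was closest to Gm15318 (0.994), Saa-ps (0.992), Gm16121 (0.990), Cyp51 (0.990) and Fam110c (0.989). Fam110c was the only gene in both of these sets of 5. Gadd45a was closest to Gm10819 (0.995), Tyw1 (0.994), Pebp1 (0.993), Gm30619 (0.993) and Gm9824 (0.989) in the first table. In the second it was closest to Cyb5a (0.992), Ugt1a1, Ugt1a2 and Ugt1a5 (0.987, 0.987 and 0.986), which share exons, and Adssl1 (0.984). The libraries fall into treated and WT clusters, both tables share the WT libraries, and the values carry no test.

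Few genes near the members were listed. Within 250 kb of Gadd45b these were Gng7, a G protein subunit 16420 bases away, which rose from 16 ± 9.82 to 43 ± 17.0 normalized counts (log2 fold change 1.44), and Izumo4, which fell by 1.70 on the log2 scale, both in Setd8-LKO + TCPOBOP. Near Gadd45a they were E230016M11Rik and, in Setd8-LKO + TCPOBOP, Gm38825, which fell by 1.16 on the log2 scale. None of the neighbours approached the fold changes of the members.

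In the peak lists the loci of both genes differed. For the 8 lists of H3K27ac, ATAC-seq, CTCF and Smc3 peaks, a promoter peak was counted where it lay within 1000 bases of an annotated transcript start. Gadd45b had no promoter peak in any of the 8 lists and no peak in its gene body, and Gadd45a had a promoter peak in 7. H3K27ac, a mark of active promoters and enhancers, was listed at 54.5% of 21938 protein-coding promoters in WT and 58.8% in Setd8-LKO + TCPOBOP. ATAC-seq peaks, which mark open chromatin, were listed at 43.1% and 37%. Peaks of CTCF, which bounds chromatin loops, were at 6.81% and 43.2% of promoters, and those of the cohesin subunit Smc3 at 17.2% and 58.2%. The labels give 3 WT and 3 Setd8-LKO + TCPOBOP samples for H3K27ac, 3 and 5 for ATAC-seq, 4 and 2 for CTCF, 3 and 2 for Smc3, 4 and 4 for Lamin A/C and 2 and 2 for H4K20Me3. How these were joined into 1 list per condition is not given in the sources used here, and differences between lists have no replicate check. The authors kept only reads of high mapping quality, removed blacklisted regions and called peaks at a strict p cutoff. Whether the missing peaks at Gadd45b reflect absent signal or reads removed by these steps was not tested.

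The nearest H3K27ac peak to the start of Gadd45b was 11.7 kb upstream in both lists. It lay at chr10:80917534-80918328 in WT with 23-fold enrichment and at chr10:80917782-80918350 in Setd8-LKO + TCPOBOP with 29.1-fold, over an exon of Lmnb2 near its start, the gene of lamin B2. Of protein-coding genes 41.5% in WT and 36.8% in Setd8-LKO + TCPOBOP had their nearest H3K27ac peak farther away. The nearest ATAC-seq peak was 15.3 kb upstream in WT (5.88-fold) and 15.4 kb in Setd8-LKO + TCPOBOP (5.75-fold), in an intron of Lmnb2. Within 50 kb all listed peaks were upstream of the gene, and none was found downstream. Of the 1661 protein-coding genes called higher in Setd8-LKO + TCPOBOP, 439 likewise had no promoter H3K27ac peak in that list, and 73.6% had one.

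The closest peak to Gadd45b in any list was a Smc3 peak of Setd8-LKO + TCPOBOP at chr10:80928401-80928772, 1301 bases upstream of the start and in intergenic sequence. Its enrichment was 21.4-fold (-log10 p of 78.2), and 60.2% of the 21615 peaks in that list were higher. In WT the nearest Smc3 peak was 48.5 kb upstream, next to a CTCF peak at the same distance in an intron of Tmprss9. Within 50 kb of Gadd45b the number of CTCF peaks was 1 in WT and 11 in Setd8-LKO + TCPOBOP, and that of Smc3 peaks 1 and 9. The lists as a whole grew in the same direction, from 5838 to 20905 CTCF peaks and from 13045 to 21615 Smc3 peaks. Genome-wide, the paper reports weaker binding at the gained sites of both proteins and estimates that these are probably unstable and without function.

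Gadd45a carried H3K27ac and open chromatin over its start in both conditions. H3K27ac was 43.5-fold enriched at chr6:67036542-67037469 in WT and 50.7-fold at chr6:67035797-67037507 in Setd8-LKO + TCPOBOP, where 5.74% of peaks were higher. The ATAC-seq peak over the start was 7.54-fold enriched in WT and 7.12-fold in Setd8-LKO + TCPOBOP. An additional ATAC-seq peak lay inside the gene at chr6:67036439-67036788 in WT (6.01-fold) and at chr6:67036501-67036725 in Setd8-LKO + TCPOBOP (4.88-fold). The Smc3 peak of the gene was 752 bases long in WT, with 28.3-fold enrichment, and 1245 bases long in Setd8-LKO + TCPOBOP, with 129-fold. It ranked 271 of 13045 and 463 of 21615 in its lists. CTCF peaks were listed at Gadd45a only in Setd8-LKO + TCPOBOP, at chr6:67036452-67036837 (34.7-fold) and chr6:67036963-67037486 (11.3-fold). In WT the nearest CTCF peak was 105 kb away.

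Gadd45g, whose RNA was not analysed, had promoter peaks in 6 of the 8 lists. Its H3K27ac peaks were 47.6-fold and 45.9-fold enriched in WT and 46.5-fold and 26.6-fold in Setd8-LKO + TCPOBOP, its Smc3 peak reached 136-fold in Setd8-LKO + TCPOBOP, and no ATAC-seq peak was listed at its promoter. No Lamin A/C or H4K20Me3 island lay within 50 kb of any of the 3 genes in either condition. Lamin A/C islands covered 13% of protein-coding genes in WT and 10.7% in Setd8-LKO + TCPOBOP, and H4K20Me3 islands 11.1% and 11.4%. The nearest island of either kind to Gadd45b was an H4K20Me3 island 1070 kb away, and that to Gadd45a lay 277 kb away.

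**Figure D5:**
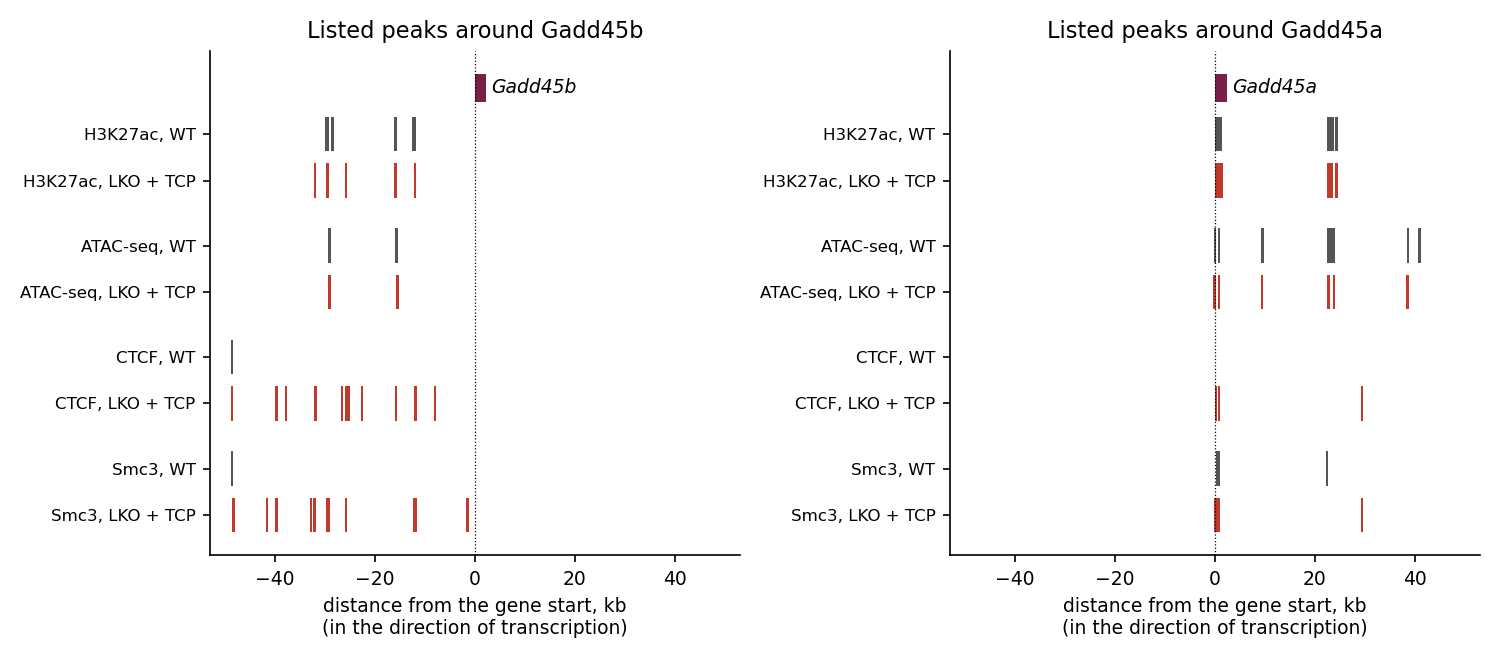
Positions of listed peaks within 50 kb of Gadd45b, left, and Gadd45a, right, as distance from the gene start in kb along the direction of transcription, for WT (grey) and Setd8-LKO + TCPOBOP (red). Peaks narrower than 0.5 kb are drawn at that width, all peaks near Gadd45b lie upstream of it, and those of Gadd45a lie over its start and downstream.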

How the data were processed

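RNA-seq of 14 whole-liver libraries and peak or island lists of 6 assays were used. The authors filtered reads, aligned them to mm10 with HISAT2 and analysed gene counts with metaseqR. They deposited raw counts and normalized counts (signal) per gene, the latter equal to the raw count times 1 factor per library within 0.792. The submitters' processing notes name Trimmomatic 0.39, MACS2 2.2.7.1, deepTools 3.3.2 and SICER. The deposited MACS2 lists give fold enrichment (a ratio) and -log10 p per peak, and the deposited SICER lists give an island score. Reads of the ChIP-seq and CUT&Tag samples had been reduced in proportion to the smallest sample, and peaks were deposited as 1 list per condition.

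Counts were tested with edgeR 4.0.16 (quasi-likelihood, R 4.3.3, limma 3.58.1) using the authors' factors, after edgeR's filter on low counts at a minimum count of 10. Since total depth is not in the tables, library sizes were set from the inverse factors around an assumed 40000000 reads, which bears on the filter and not on the fold changes between libraries. DESeq2 1.42.0 was an alternative. Fits were tested on simulated data. P-values were adjusted (Benjamini-Hochberg) over the 18512 genes the authors tested, a number read from the ratio of their adjusted to unadjusted p-values. Their own fold changes and p-values were not used otherwise, and 114 further columns of per-sample values in these tables were not used. The plan took both tables as normalized separately. Because the untreated columns were identical for 506 of 506 shared genes, the direct comparison of both TCPOBOP groups, adjusted over those 506 genes, was added after seeing the data. Single genes were also tested by exact permutation of log2(normalized count + 1). GENCODE M21 gave gene positions, and RefSeq GRCm38.p6 the promoters, in which both members were matched by symbol. Peaks are given 1-based. Figures were drawn with matplotlib 3.10.9 (Python 3.11.15).

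Total depth is not known from tables of selected genes, and counting error alone is large for Gadd45b in WT, at 6 to 41 reads. Nothing in the labels says that replicates share a litter or day. Same-numbered libraries did not deviate together (correlations from -0.43 to 0.11), so the number was not used as a block.

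The members and the gene lists were chosen with earlier results of these data known. Genes were named where they start with Gadd45, lie within 250 kb of a member, are among the 5 most correlated with one, are among the 3 largest rises or 2 largest falls of a list, or are Cyp2b10, Cdkn1a, Mdm2, Map3k4, Map2k7, Nr1i3 or Kmt5a. Jun, Ass1, Lrat, Ccr2, Foxm1, Abcc4, Gsta1, Gstm3, Cyp2c37, Cyp2c50 and Cyp2c54 were named after their values were seen. Alternatives covered scaling, tool, filter, run, replicate block, left-out libraries, promoter window and peak threshold.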

Additional observations from a re-analysis of the deposited data

Results flagged for a closer look

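The log2 difference of Gadd45b between Setd8-LKO + TCPOBOP and WT + TCPOBOP, -0.96, was noted because an exact permutation test of the difference between both TCPOBOP groups gave p = 0.0159, while its edgeR adjusted p was 0.056. In 55 groups of 4 or 5 libraries, 9 held a library far from the others, and chance flags about 1 in 20 groups.

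Gadd45b itself had 42 normalized counts in WT replicate 4 beside 6 to 16 in the other WT libraries. Egr1 reached 1698 in 1 WT library (95 to 247 in the others) and 151 in 1 WT + TCPOBOP library (32 to 52). In WT, Myc reached 297 (41 to 52), Relb 76 (40 to 49) and Ckap2 18 (4 to 7). In Setd8-LKO + TCPOBOP, Akr1b7 reached 1574 (1010 to 1089) and Gtse1 299 (244 to 249), and Ckap2 was lowest at 325 (482 to 509). The WT library with the highest Egr1 and Relb, replicate 3, had the lowest Gadd45b count, at 6 raw reads. This is 1 library, and a link between these genes was not tested.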

How the results depend on the processing

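Both Gadd45 genes stayed called higher than in WT under all 18 alternatives for Setd8-LKO + TCPOBOP and all 19 for WT + TCPOBOP. In WT + TCPOBOP the log2 fold change ranged from 5.11 to 6.98 for Gadd45b (6.14 to 6.98 with 1 library left out) and from 1.86 to 4.0 for Gadd45a (2.94 to 3.45). In Setd8-LKO + TCPOBOP it ranged from 4.70 to 6.03 for Gadd45b (5.05 to 6.03) and from 2.52 to 4.21 for Gadd45a (3.18 to 3.69). In the direct comparison Gadd45b ranged from -1.31 to -0.66 (-1.31 to -0.79 with 1 library left out, edgeR adjusted p from 0.0176 to 0.155) and was called only without Setd8-LKO + TCPOBOP replicate 3. DESeq2 gave it an adjusted p of 0.0301, short of a 2-fold change, and adjustment over 18512 genes gave 1. Gadd45a ranged from 0.13 to 0.52 (0.13 to 0.33). As a plain log2 ratio of means, raw in place of normalized counts gave -0.31 for Gadd45b and 0.86 for Gadd45a, a shift fixed by the authors' factors (0.752 to 0.855 in Setd8-LKO + TCPOBOP, 1.09 to 1.39 in WT + TCPOBOP).

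The number of genes called was 3455 in Setd8-LKO + TCPOBOP (3114 to 3464 with 1 library left out, 1257 in run A alone, which has fewer libraries, and 2342 with DESeq2 size factors). It was 535 in WT + TCPOBOP (470 to 539, 275 in run A alone, 278 with TMM factors and 282 with DESeq2 size factors, of which 75 higher) and 227 in the direct comparison (210 to 230). Median log2 shifts reached -1.17 with DESeq2 size factors in WT + TCPOBOP, and 0.29 (TMM) and 0.11 in the direct comparison. With the replicate number as a block, Gadd45b was at 6.59, 5.51 and -1.07 and Gadd45a at 3.25, 3.28 and 0.16 in WT + TCPOBOP, Setd8-LKO + TCPOBOP and the direct comparison, with no call of either gene changed and 364, 2943 and 209 genes called. A promoter window of 2500 bases gave Gadd45b a peak in 1 of 8 lists. Of 679 alternative values for single named genes, 639 kept direction and call, 13 lost the call, 26 gained it, 1 moved and 0 reversed.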
